A study of Mus musculus with 24 samples.

Results

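miR-335 is a microRNA (miRNA, a short RNA that represses messenger RNAs) made from a hairpin in an intron of Mest, and its 2 mature arms, miR-335-5p and miR-335-3p, are described here in subcutaneous white fat of mice. They are 2 of the 1907 mature miRNA names in the count table, and both were chosen by name and both are among the 558 that passed the filter on low counts. Small RNA was sequenced from mice fed a high-fat or a control diet and sampled at day 1, week 1 and week 3. Each of the 6 combinations has 4 libraries, 24 in all. The high-fat and the control mice of a time differ, as far as the labels say, in diet alone. The sources used here do not give strain, age, sex or the make-up of the diets. Whether each library is a mouse of its own is not labelled, and the p-values then speak only of spread among libraries, part of which may be technical.

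Mest, also called Peg1, is an imprinted gene expressed from the paternal allele. In mouse white fat its messenger RNA is known to rise when adipocytes enlarge on energy-rich diets, and it is used as a marker of adipose expansion. miRNAs in introns are often cut from the host transcript by Drosha and then by DICER, which releases a duplex of a 5p and a 3p arm. Usually 1 arm is kept in the Argonaute protein and the other is degraded, so the arm ratio is a property of its own. miR-335 has been linked to adipocyte differentiation and to obesity in mice, and in human mesenchymal stem cells to the control of proliferation. Mest mRNA is not analysed here.

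The hairpin lies on chromosome 6, from 30741299 to 30741396 on the plus strand (GRCm38, the assembly called mm10). It is within Mest (30723547 to 30748465), and intronic in 7 of the 11 Mest transcripts of GENCODE M21, with the other 4 not spanning it and none having it in an exon. In each of those 7 transcripts the exon before it ends 475 bases upstream and the exon after it starts 745 bases downstream. The sequences are shown because the comparison of the arms rests on them; they are from RefSeq (GRCm38.p6), 5′ to 3′. In the arms, capitals mark the seed, bases 2 to 8, which pairs with target messenger RNAs, and in the hairpin they mark the 2 mature arms.
mmu-miR-335-5p: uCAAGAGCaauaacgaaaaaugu
mmu-miR-335-3p: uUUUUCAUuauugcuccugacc
Mir335 hairpin: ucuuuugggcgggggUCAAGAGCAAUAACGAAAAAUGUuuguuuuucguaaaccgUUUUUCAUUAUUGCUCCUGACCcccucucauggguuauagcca
The 5p arm has 23 bases (30741314 to 30741336) and the 3p arm 22 (30741354 to 30741375), with a loop of 17 bases between them. In the minimum-energy fold given by RNAfold, 18 base pairs joined the arms. Their seeds differ, and neither was found in any other of the 1679 mature mouse miRNA names in the RefSeq table. No other hairpin in that table has the same sequence.

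Both arms were present in every library at moderate levels. Levels are CPM, counts scaled to the library total, after TMM scaling, a correction for differences in composition between libraries. miR-335-5p averaged 101 CPM over the 24 libraries and ranked 186 of the 558, and miR-335-3p averaged 104 CPM and ranked 185. The next in rank above both was miR-3068-5p (104 CPM) and the next below both was miR-152-5p (98.7 CPM). Library totals ran from 1992610 to 16299200 counts, and the arms were read 87 to 2636 times (5p) and 96 to 5034 times (3p) in a library. The limit that a count of 0 allows, 3 counts, was 1.48 CPM in the shallowest library, far below every value of either arm.

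Both arms varied more between libraries of a group than the typical miRNA of their abundance. The SD of log2 CPM within groups was 0.62 for miR-335-5p and 0.82 for miR-335-3p. The median over the 96 tested miRNAs with a mean of 50 to 200 CPM was 0.35, and 18 of them varied more than the 5p arm and 9 more than the 3p arm. From its lowest to its highest library, miR-335-5p spanned 5.92-fold, from 38.5 CPM in control week 1 replicate 1 to 228 CPM in high-fat week 3 replicate 3. miR-335-3p spanned 15.6-fold, from 27.9 CPM in control week 1 replicate 2 to 435 CPM in the same high-fat week 3 replicate 3. That library is the deepest high-fat one, with 11973400 counts, and it enters every week 3 result of the high-fat diet.

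After 1 day, neither arm differed between the diets past the test. miR-335-5p had 72.9, 105, 70.4 and 42.9 CPM in the high-fat libraries, against 59.2, 108, 149 and 113 CPM in the control libraries. High-fat replicate 4 was below all control libraries and the other 3 lay within their range. miR-335-3p had 59.6, 87.1, 40.1 and 47.3 CPM on the high-fat diet, against 50.02, 37.9, 55.1 and 50.1 CPM on the control diet, with 2 high-fat libraries above all 4 controls. The log2 fold changes were −0.55 ± 0.42 (SE; 95% interval −1.41 to 0.31) for 5p and 0.28 ± 0.54 (−0.85 to 1.41) for 3p, each with an adjusted p of 0.982 in edgeR's quasi-likelihood test. In this comparison 0% of the 558 miRNAs passed after adjustment, by DESeq2 and limma 0 as well, and 3.05% had an unadjusted p under 0.05; the unadjusted p of the 5p arm was 0.198.

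After 1 week, both arms had higher means on the high-fat diet, and neither difference passed the test. miR-335-5p had 114, 74.6, 184 and 83.9 CPM on the high-fat diet, against 38.5, 48.6, 121 and 61.7 CPM on the control diet. All 4 high-fat libraries were above the control median, but control replicate 3 exceeded 3 of them. miR-335-3p had 129, 42.4, 228 and 91.6 CPM on the high-fat diet, against 40.2, 27.9, 107 and 80.6 CPM on the control diet, and 2 high-fat libraries stood above all controls. The log2 fold changes were 0.76 ± 0.42 (SE; 95% interval −0.10 to 1.62; adjusted p 0.382 in edgeR) for 5p and 0.94 ± 0.54 (−0.19 to 2.07; adjusted p 0.400) for 3p. Of all tested miRNAs, 0% passed after adjustment in edgeR, with 0 by DESeq2 and 17 by limma, and 14.2% had an unadjusted p under 0.05. Neither arm reached that unadjusted level (p 0.0816 and 0.0988). The 2 arms summed, 1 value for the hairpin, gave 0.82 ± 0.45 (adjusted p 0.337).

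Leukocyte markers had lower levels in the same week, 6 of 7 with a fold change below 0 (median −1.49) and none past the test in edgeR. The summed level of the 7 leukocyte markers, all of which passed the filter and were above 0 (miR-142a-3p, miR-142a-5p, miR-150-5p, miR-155-5p, miR-223-3p, miR-342-3p and miR-146a-5p), ran from 5886 to 21675 CPM in the high-fat libraries, against 11685 to 50224 CPM in the control libraries. Other marker lists also had fold changes above 0, with none past the test, though adipocyte markers did so in 1 of 6 and stromal in 5 of 7. For the epithelial list this was 7 of 7 (median 0.38), summing to 8761 to 39056 CPM on the high-fat diet, against 12759 to 16416 CPM on the control diet. For skeletal muscle it was 5 of 5 tested (median 0.66), at 130 to 80427 CPM on the high-fat diet, against 539 to 18459 CPM on the control diet. The 4 erythrocyte markers (median 0.29) summed to 2213 to 2655 CPM on the high-fat diet, against 1586 to 2302 CPM on the control diet. Liver miR-122-5p (1.36) had 345 to 760 CPM on the high-fat diet, against 128 to 366 CPM on the control diet. With the muscle and leukocyte marker means as covariates, the week 1 fold changes were −0.0030 for 5p and −0.24 for 3p. That fit takes up whatever the diet and these 2 marker lists share, and the part of these cell types in the miR-335 difference was not tested. In bulk tissue, fewer cells of a type and less RNA per cell cannot be told apart.

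After 3 weeks, the highest library of the series for both arms was on the high-fat diet, and the groups overlapped. miR-335-5p had 164, 86.3, 228 and 90.2 CPM on the high-fat diet, against 177, 91.3, 63.1 and 75.3 CPM on the control diet. miR-335-3p had 156, 80.4, 435 and 151 CPM on the high-fat diet, against 235, 106, 44.8 and 108 CPM on the control diet. Only high-fat replicate 3 was above all controls for either arm, and control replicate 1 was above the other high-fat libraries for both. The log2 fold changes were 0.49 ± 0.41 (SE; 95% interval −0.37 to 1.34) for 5p and 0.74 ± 0.54 (−0.38 to 1.86) for 3p, each with an adjusted p of 0.999 in edgeR, where 0% of the 558 passed, by DESeq2 and limma 0 as well, and 1.79% had an unadjusted p under 0.05. Without high-fat replicate 3 the 3p value was 0.14 and the 5p value 0.23, and without control replicate 1 they were 1.28 and 0.93.

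**Figure D1:**
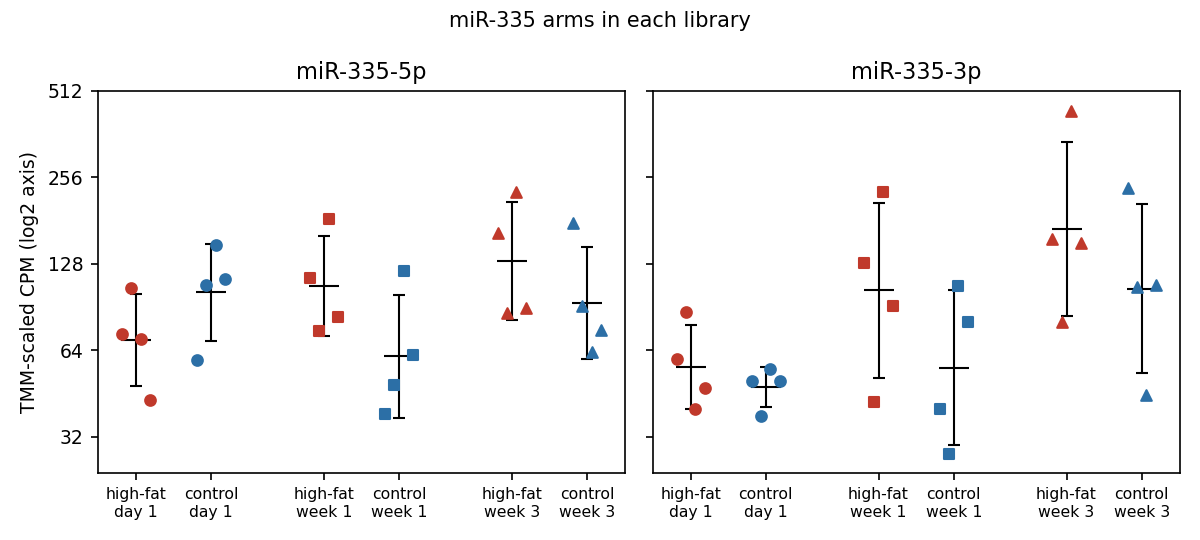
TMM-scaled CPM of miR-335-5p (left) and miR-335-3p (right) in each of the 24 libraries on a log2 axis, with high-fat groups in red left of control groups in blue and circles, squares and triangles for day 1, week 1 and week 3. Bars give the mean ± SD of log2 CPM (n = 4); the 2 diets overlap at each time, and the single highest point of both panels is high-fat week 3 replicate 3 (228 and 435 CPM).

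With the 3 times given equal weight, the diet estimate from 12 high-fat and 12 control libraries was 0.23 ± 0.24 (SE) for miR-335-5p (unadjusted p 0.344) and 0.65 ± 0.31 for miR-335-3p (unadjusted p 0.0493). Both had an adjusted p of 0.993 in edgeR. An unadjusted p under 0.05 was found for 3.23% of the tested miRNAs, and 0% passed after adjustment, with 0 by DESeq2 and by limma. The interval (95%) was 0.0023 to 1.30 for 3p and −0.26 to 0.73 for 5p, so a 2-fold difference in level on average lay outside the interval of the 5p arm and inside that of the 3p arm. Whether the diet effect differed between the times was not resolved. The joint test had an adjusted p of 0.567 for 5p and 0.927 for 3p. The diet effect of miR-335-5p at week 1 minus that at day 1 was 1.31 ± 0.59 on the log2 scale (unadjusted p 0.0362, adjusted p 0.313), where 14.9% of miRNAs had an unadjusted p under 0.05. In the joint test this share was 7.35% and at week 3 minus day 1 it was 1.97%; 0% passed after adjustment in each of these, by DESeq2 and limma 0 as well.

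Over time, miR-335-3p had higher levels at week 3 than at day 1 on each diet. The difference passed the test with both diets together. The times may also differ in mouse age and in handling, which are not labelled and cannot be told apart from time on the diet. Fed the high-fat diet, mice had miR-335-3p at 206 ± 157 CPM (SD, n = 4) at week 3, against 58.5 ± 20.7 CPM at day 1, a log2 fold change of 1.81 ± 0.56 (SE; 95% interval 0.66 to 2.97; unadjusted p 0.00372, adjusted p 0.143 in edgeR). On the control diet it averaged 124 ± 79.7 CPM at week 3, against 48.3 ± 7.32 CPM at day 1, a log2 fold change of 1.35 ± 0.55 (0.21 to 2.49; unadjusted p 0.0223, adjusted p 0.271). In each diet 3 of the 4 week 3 libraries were above all day 1 libraries of that diet. Neither passed after adjustment in edgeR, where 0% of miRNAs did on the high-fat and 0.358% on the control diet; 15.8% and 14.9% had an unadjusted p under 0.05. On the high-fat diet DESeq2 called 11 miRNAs and limma 14. miR-335-3p was among the calls of DESeq2 there (adjusted p 0.0395) but not among those of limma. Without high-fat week 3 replicate 3 the high-fat value was 1.13 (adjusted p 0.370 in edgeR), and without control week 3 replicate 1 the control value was 0.79 (adjusted p 0.544).

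With both diets together, 8 week 3 against 8 day 1 libraries, a contrast added after the data were seen, miR-335-3p rose by 1.58 ± 0.39 on the log2 scale, or 3-fold (adjusted p 0.0196 in edgeR, 16 in rank among 558). In that contrast 7.17% of the tested miRNAs passed, 28% had an unadjusted p under 0.05, and the median over all of them was 0.05. The adjusted p was 0.0519 without high-fat week 3 replicate 3 (1.21), 0.0523 without control week 3 replicate 1 (1.27) and 0.0693 with no filter on low counts (1.56). In the same contrast 7 of 7 leukocyte markers had a fold change below 0 (median −0.33), with none past the test. Their summed level ran from 14060 to 28763 CPM (high-fat) and from 5326 to 36195 CPM (control) at week 3, against 23779 to 51937 CPM (high-fat) and 17384 to 40276 CPM (control) at day 1. Endothelial miR-126a-3p rose (0.36, adjusted p 0.0473 in edgeR), and 4 of 4 erythrocyte markers had a fold change above 0 (median 0.59), with miR-144-3p past the test (0.78, adjusted p 0.0478). All 5 tested skeletal muscle markers had a fold change above 0 (median 2.34) with none past the test, and summed to 1225 to 17156 CPM (high-fat) and 2190 to 12897 CPM (control) at week 3, against 24.04 to 3022 CPM (high-fat) and 129 to 2302 CPM (control) at day 1. With the leukocyte and muscle marker means in the model the 3p value was 1.07 (adjusted p 0.0322 in edgeR); the part of other cell types in the difference was not tested.

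The 5p arm passed in none of these contrasts. On the high-fat diet it averaged 142 ± 67.4 CPM (SD, n = 4) at week 3, against 72.9 ± 25.6 CPM at day 1 (log2 fold change 0.96 ± 0.42, unadjusted p 0.0312, adjusted p 0.285 in edgeR). On the control diet it averaged 102 ± 51.6 CPM at week 3, against 107 ± 36.8 CPM at day 1 (−0.08 ± 0.41, adjusted p 0.940). The contrast over both diets was 0.44 ± 0.29 (adjusted p 0.335). At week 1 against day 1 the 5p value was 0.64 ± 0.42 on the high-fat and −0.67 ± 0.41 on the control diet, and the 3p value 1.07 ± 0.55 and 0.41 ± 0.54, with adjusted p of 0.356, 0.478, 0.275 and 0.749. At week 3 against week 1 the 5p values were 0.32 ± 0.41 and 0.59 ± 0.41 and the 3p values 0.75 ± 0.54 and 0.94 ± 0.54 on the high-fat and control diets, with adjusted p from 0.529 to 0.993. In edgeR 0.179% of miRNAs passed at week 1 against day 1 on the control diet and 0% in the other 3 contrasts. An unadjusted p under 0.05 was found for 20.6% (high-fat) and 13.6% (control) at week 1 against day 1, and for 14.3% (high-fat) and 2.33% (control) at week 3 against week 1. At week 1 against day 1 DESeq2 called 23 miRNAs and limma 44 on the high-fat diet, and 9 and 22 on the control diet, and each called 0 at week 3 against week 1.

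In order of group means of the summed arms, the lowest were control week 1 (131 ± 71.3 CPM, SD, n = 4), high-fat day 1 (131 ± 44.2 CPM) and control day 1 (156 ± 39.3 CPM). Control week 3 (225 ± 130 CPM), high-fat week 1 (237 ± 128 CPM) and high-fat week 3 (348 ± 219 CPM) followed. No neighbours in that order differed by more than the larger of their SDs. The SD was 25.3% to 33.7% of the mean in the day 1 groups and 53.8% to 63.0% in the later ones; that difference in spread was not tested.

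**Figure D2:**
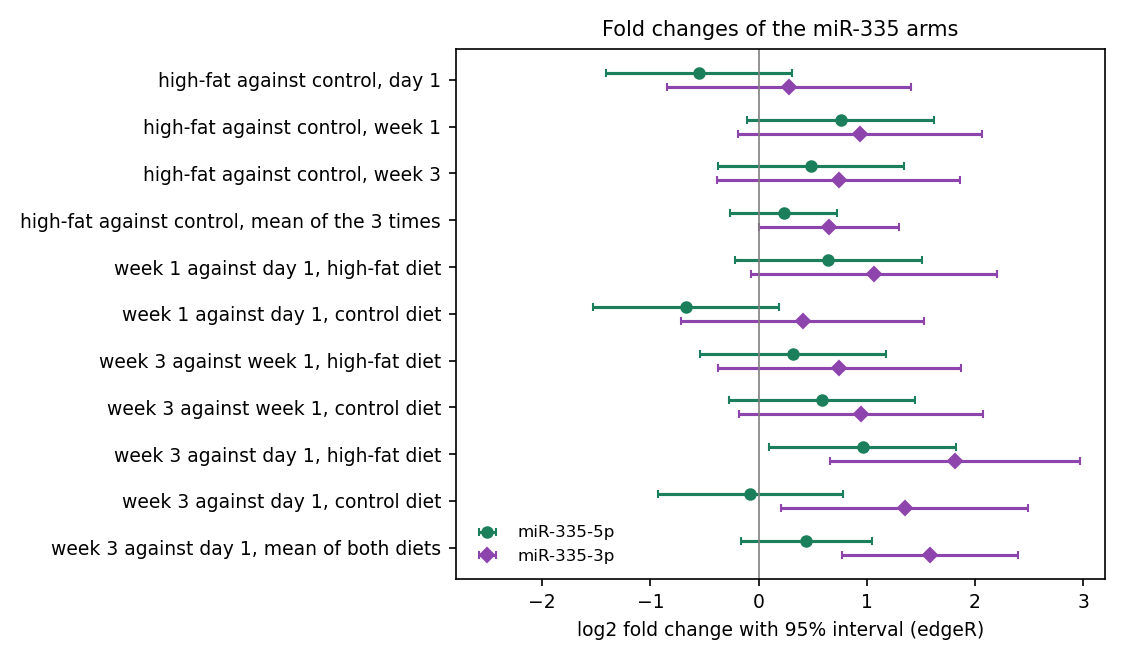
Log2 fold change (x axis) of miR-335-5p (green circles) and miR-335-3p (purple diamonds) in each comparison (rows), first group named over the second, with 95% intervals from edgeR. The 3p intervals of the 3 comparisons of week 3 against day 1 lie above 0, and the 5p value on the control diet is −0.08. Also above 0 are the 5p interval of week 3 against day 1 on the high-fat diet (0.095 to 1.83) and the 3p interval of the diet mean over the 3 times (0.0023 to 1.30). The intervals are not adjusted for the number of miRNAs. Of these, only 3p at week 3 against day 1 over both diets passed after adjustment.

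The 5p arm had more counts than the 3p arm in 7 of 8 libraries at day 1, and in 3 of 8 at week 1 and at week 3. The 5p share of miR-335 counts in the day 1 libraries was 55.0%, 54.8%, 63.7% and 47.5% on the high-fat diet, against 54.2%, 74.0%, 72.9% and 69.3% on the control diet. At week 1 it was 46.9%, 63.8%, 44.6% and 47.8% on the high-fat diet, against 48.9%, 63.5%, 53.0% and 43.3% on the control diet. At week 3 it was 51.3%, 51.8%, 34.4% and 37.4% on the high-fat diet, against 43.0%, 46.2%, 58.5% and 41.0% on the control diet. The Wilson 95% interval was widest in the shallowest library, high-fat day 1 replicate 4 (40.4% to 54.8%), and narrowest in high-fat week 3 replicate 3 (33.3% to 35.4%). These intervals and the 3-count limit cover counting error only, since no molecular identifiers are mentioned.

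As log2 of the 5p over the 3p counts, which needs no scaling between libraries, the ratio was 0.31 ± 0.39 (SD, n = 4) on the high-fat and 1.09 ± 0.58 on the control diet at day 1. It was 0.05 ± 0.52 and 0.13 ± 0.50 at week 1, and −0.38 ± 0.54 and −0.16 ± 0.46 at week 3. At day 1, 3 control libraries lay above all high-fat libraries, and control replicate 1 lay among them. The diet differences of −0.78, −0.08 and −0.21 gave p of 0.114, 0.771 and 0.571 in two-sided exact permutation tests, or 0.343, 0.771 and 0.771 after adjustment across times, where 4 libraries against 4 allow no p under 0.0286. Permuting within all 3 times at once gave a mean difference of −0.36 and an exact p of 0.0967 (343000 regroupings; 0.956 adjusted over hairpins). In that test 0% of hairpins passed after adjustment and 4.79% of the 167 with both arms tested had an exact p under 0.05.

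Week 3 against day 1, the ratio differed by −0.68 on the high-fat diet (exact permutation p 0.143, adjusted p 0.143) and by −1.25 on the control diet (exact permutation p 0.0571, adjusted p 0.114), neither past the threshold. Both diets together, a test added after the data were seen, gave −0.97 and, permuting within diets (4900 regroupings), an exact p of 0.00571. Adjusted over the same test in all 167 hairpins, that p was 0.0682 and did not pass; 23.4% of the hairpins had an exact p under 0.05 and 4.19% passed after adjustment. The difference for miR-335 ranked 5 of 167 from the most negative, and 3 among the 99 hairpins whose arms both averaged at least 10 CPM, while the median over the 167 was −0.03. The level of the hairpin and its arm ratio had no relation past the test across libraries (centred on group means, Pearson r −0.39, permutation p 0.0969; Spearman rho −0.37, permutation p 0.122; n = 24).

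**Figure D3:**
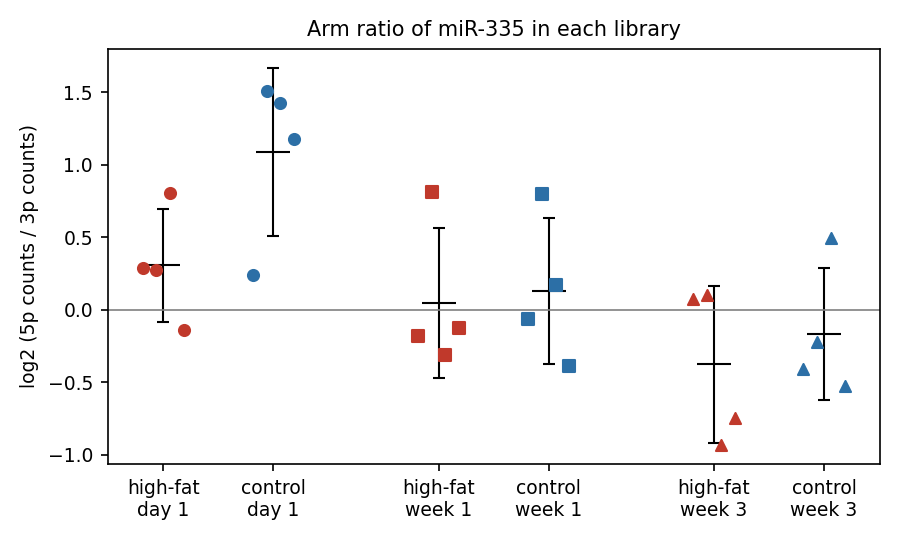
Log2 of the 5p over the 3p counts of miR-335 in each library (points; high-fat in red left of control in blue at each time), with mean ± SD (n = 4); 0 means equal counts. Of 8 libraries at each time, 7 lie above 0 at day 1 and 3 at week 1 and at week 3.

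**Figure D4:**
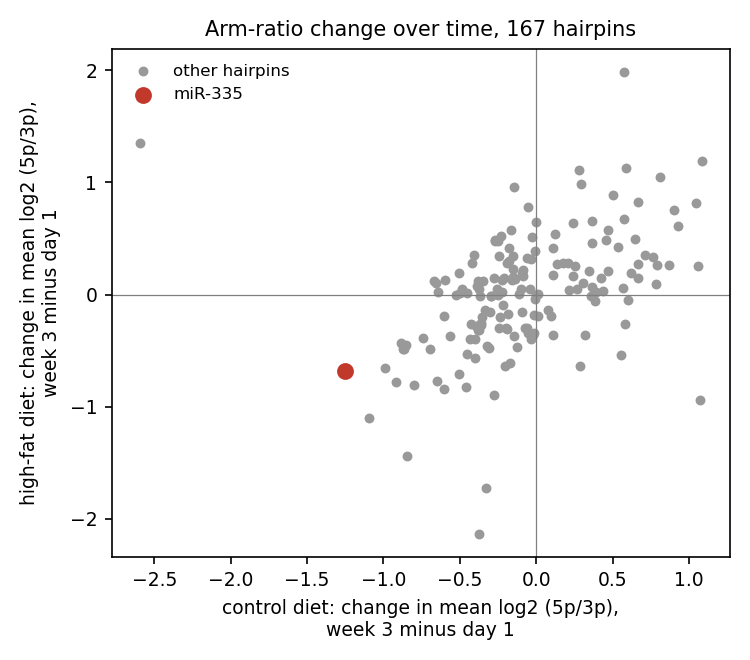
Mean log2 (5p/3p) at week 3 minus that at day 1 for each of 167 hairpins, on the control diet (x axis) and on the high-fat diet (y axis), 4 libraries per group. miR-335 (red) is at −1.25 and −0.68, in the lower left with few of the other hairpins (grey).

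The 2 arms varied together from library to library. With group means subtracted, their log2 CPM had a Pearson r of 0.80 (permutation p 6e-05) and a Spearman rho of 0.75 (permutation p 0.0002) over 24 libraries, and r was 0.74 without the 2 libraries farthest from the median (permutation p 0.0004). Among the 358 other miRNAs with a mean of at least 10 CPM, each arm was the one most like the other. This likeness is the Pearson r of group-centred log2 CPM over 24 libraries that share size factors, and it is given below as a description. Next after it for the 5p arm came miR-143-5p, the minor arm of the smooth muscle and pericyte miRNA miR-143 (r 0.69), miR-330-3p (0.65), miR-22-3p (0.63) and miR-190a-5p (0.63). For the 3p arm they were miR-504-5p (0.78), miR-143-5p (0.76), miR-99b-3p (0.75) and miR-210-3p, which is induced by low oxygen (0.73).

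The least alike miRNAs were these. For the 3p arm the lowest r were those of miR-155-5p, which is induced in activated lymphocytes and macrophages (−0.81), miR-146a-5p, a target and brake of NF-κB signalling (−0.76), and miR-1291 (−0.76). For the 5p arm they were miR-7a-5p (−0.76), miR-361-3p (−0.72) and miR-146a-5p (−0.70). Of these 5 miRNAs, miR-155-5p and miR-146a-5p are on the leukocyte list.

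The mean log2 CPM of the leukocyte list had the strongest relation to miR-335 of 10 measures tested for each arm. List members did not range alike, from 1048 to 18621 CPM for miR-142a-3p but from 138 to 293 CPM for miR-223-3p. The mean therefore follows the wider-ranging members more. With group means subtracted, Pearson r was −0.76 for miR-335-3p (permutation p 0.00031, adjusted over 20 relations 0.0062) and Spearman rho −0.77 (permutation p 0.00016, adjusted 0.0032). For miR-335-5p, r was −0.64 (permutation p 0.0046, adjusted 0.0460) and rho −0.65 (permutation p 0.00153, adjusted 0.0153); with library totals in place of TMM this r was −0.59 and did not pass (adjusted permutation p 0.0873). Without the 2 libraries farthest from the median of the leukocyte mean, r was −0.74 for 3p and −0.64 for 5p. The libraries with the lowest leukocyte means, control week 3 replicate 1 (8.92 log2 CPM), high-fat week 1 replicate 3 (8.97) and high-fat week 1 replicate 1 (8.999), each had the highest or second highest miR-335-3p of their group. Among 352 miRNAs outside the leukocyte list, 49 had an r under −0.5 with that mean and the median was −0.16, so that the 3p arm ranked 2 and the 5p arm 14 from the lowest.

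The other 8 marker lists and the library total had smaller r with miR-335. Stromal markers had r 0.57 with the 3p arm (rho 0.61) and 0.32 with the 5p arm (rho 0.36), and endothelial miR-126a-3p had 0.39 (rho 0.36) and 0.49 (rho 0.45). Erythrocyte markers had 0.44 (rho 0.38) and 0.53 (rho 0.54), and the liver miRNA miR-122-5p had 0.37 (rho 0.26) and 0.47 (rho 0.44). Adipocyte markers, led by miR-148a-3p, had 0.27 (rho 0.31) and 0.14 (rho 0.18), skeletal muscle markers 0.12 (rho 0.19) and 0.08 (rho 0.08), and epithelial markers 0.35 (rho 0.17) and 0.21 (rho 0.09). Neuronal markers had 0.00071 (rho 0.01) and 0.25 (rho 0.31), and the log10 library total 0.33 (rho 0.31) and 0.28 (rho 0.25). In none of these 18 relations was the permutation p of Pearson's r, adjusted over the 20, under 0.05; the lowest was 0.112. Adipocyte markers were abundant in every library, at 144713 to 313587 CPM in sum over 6 markers.

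**Figure D5:**
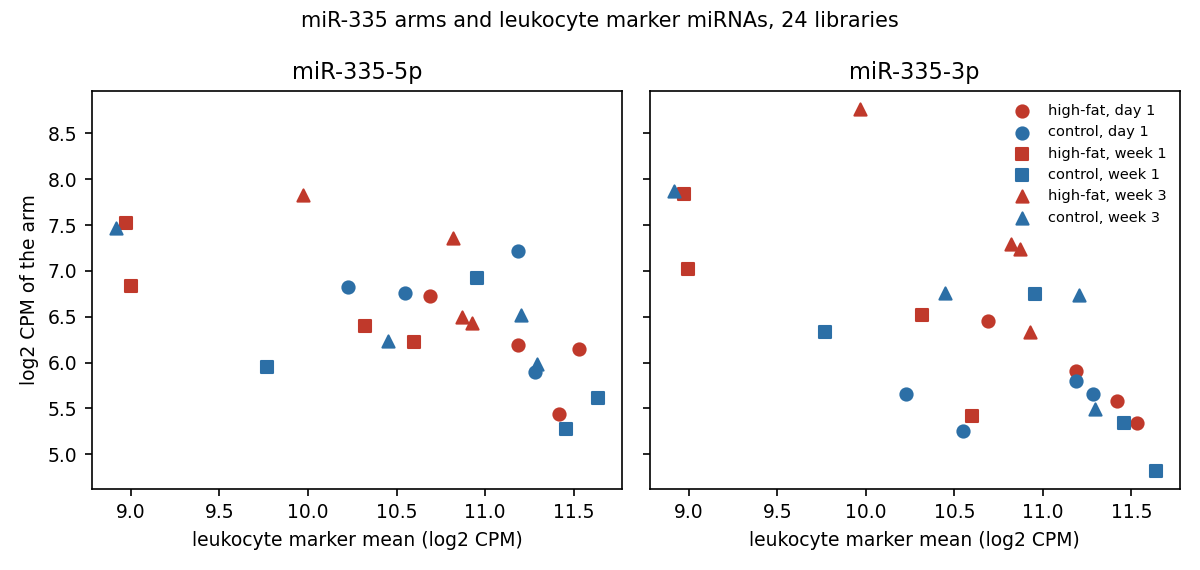
Uncentred log2 CPM of miR-335-5p (left) and miR-335-3p (right) against the mean log2 CPM of 7 leukocyte marker miRNAs, 24 libraries (red high-fat, blue control; circles day 1, squares week 1, triangles week 3). Libraries lower in leukocyte miRNAs tend to be higher in miR-335, with r of −0.64 and −0.76 after group means are subtracted.

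The listed miRNAs of the imprinted genes Igf2, H19 and Gnas were less abundant than miR-335; those of the imprinted Dlk1-Dio3 region were not on the list. miR-483 of Igf2, miR-675 of H19, and miR-296 and miR-298 of the Gnas locus gave 8 arms, of which 7 passed the filter. miR-296-5p averaged 11.4 CPM, miR-298-5p 10.6 CPM and miR-296-3p 9.34 CPM over the 24 libraries, and the arms of miR-483 and miR-675 averaged 0.883 to 1.99 CPM, near the limit of counting. None passed edgeR's test in any comparison. At week 1 on the high-fat against the control diet, 5 of 7 were higher (median 0.27, against −0.02 over all tested miRNAs), and at week 3 it was 1 of 7 (median −0.28, against −0.05). In week 3 against day 1 over both diets, 4 of 7 were higher (median 0.23).

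The listed miRNAs in introns of other host genes gave no arm that passed in the direction of miR-335-3p. Some of these genes act in lipid metabolism and related pathways (miR-33, miR-103, miR-107, miR-378a), and others do not (among them miR-26). Of 20 listed arms 16 were tested, led in abundance by miR-378a-3p (16130 CPM), miR-26b-5p (14716 CPM) and miR-103-3p (4914 CPM). In week 3 against day 1 over both diets 10 were higher and 6 lower (median 0.12), and 2 passed, where 7.17% of all tested miRNAs did. Both fell, miR-26b-5p (−0.68 ± 0.17, adjusted p 0.0209 in edgeR) and miR-452-5p of Gabre (−0.71 ± 0.19, adjusted p 0.0238). Neither lies in a gene of lipid metabolism. On the control diet alone miR-452-5p fell by 1.24 ± 0.26 (adjusted p 0.0288 in edgeR), 1 of 16 where 0.358% of all tested miRNAs passed. Between the diets no arm of the list passed at any time, and the medians were −0.0018 at day 1, −0.11 at week 1 and 0.0044 at week 3.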

How the data were processed

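Small RNA libraries were made from 1 μg of total RNA of subcutaneous fat with the NEBNext kit, per the labels' protocols. The authors deposited raw counts of reads per mature miRNA name; the submitters' processing notes list featureCounts, Bowtie2, Trim Galore, FastQC and the build mm10. The sources used here state no versions, miRNA annotation or treatment of multiply matching reads; miR-335 has 1 hairpin in the RefSeq table. Groups came from sample titles, and no batch is labelled.

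A single model with a mean for each of the 6 groups was fitted over all 24 libraries and the full table (edgeR 4.0.16, quasi-likelihood; TMM factors; R 4.3.3). Of 1907 names, 558 passed filterByExpr (count minimum 10, total minimum 15). P-values were Benjamini-Hochberg adjusted over the tested miRNAs with a threshold of 0.05, and fold changes are log2 with SE. Arm ratios (pseudocount 0.5 counts) were compared by exact two-sided permutation tests, and correlations by permuting libraries within groups (100000 resamples). Alternatives were RLE size factors, library totals alone, no filter, DESeq2 1.42.0, limma-voom (limma 3.58.1) with quality weights, a replicate block, marker covariates, leaving out the 3 libraries highest in muscle markers, and leaving out each library. The fit was tested on simulated counts for week 3 against day 1 on the high-fat diet, with 4 libraries against 4. Among 544 miRNAs, 60.8% of the 97 changed 2-fold and 96% of the 100 changed 4-fold were called. These rates are over miRNAs of all spreads and are not those of miR-335. Only 347 of the 544 were left unchanged, and with so many changed the adjustment is more lenient than where few change. The rates therefore cannot be carried over to the data. Its arms had a square root of the edgeR dispersion of 0.41 (5p) and 0.52 (3p), against a median of 0.28. In the data no miRNA passed in that contrast in edgeR, which does not show that changes of these sizes were absent. RNAfold 2.7.2 gave the fold. The members, marker lists and tests were chosen with earlier results of these data known. The lists were adipocyte, stromal, endothelial, leukocyte, erythrocyte, skeletal muscle, epithelial, liver, neuronal, imprinted host, and introns of lipid and other genes. Named miRNAs are the 2 arms, their neighbours in abundance, the 5 most and 3 least alike, list members past the threshold and the 3 most abundant of the lists described.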

Additional observations from a re-analysis of the deposited data

Results flagged for a closer look

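Within high-fat week 1, replicate 2 stood apart in the arm ratio. Its log2 ratio of 0.81 was above those of the other 3 libraries (−0.31, −0.18 and −0.13), and its gap to the nearest of them was 0.836 of the whole range of the group, above the 95% critical value of Dixon's test for 4 samples. It was 1 of 24 groups examined (6 groups for each arm, for their sum and for the ratio), and chance flags about 1 in 20. The same library had the highest skeletal muscle marker mean of the series (11.6 log2 CPM), and the part of muscle RNA in its ratio was not tested. Without it, the diet difference in the ratio at week 1 was −0.34.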

How the results depend on the processing

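No diet contrast of either arm passed under any alternative run. Of 309 values over 60 results, leaving out single libraries apart, 296 kept their direction and side of the threshold. Most of these results were not past the threshold to begin with, so that count does not measure how firm the calls are. The muscle and leukocyte covariates reversed the high-fat against control estimates at week 1 (−0.0030 for 5p, −0.24 for 3p, −0.11 for the summed arms) and that of the summed arms at day 1 (0.019). They also reversed the 3p diet effect at week 1 minus day 1 (−0.73) and week 1 against day 1 on the high-fat diet (−0.17 for 5p, −0.29 for 3p). At week 3 the same fit gave larger high-fat against control estimates than the main fit (0.63 for 5p, 0.91 for 3p, 0.80 for the summed arms), none past the test. Over the 3 times it gave smaller ones (0.08 for 5p, 0.39 for 3p, 0.24 for the summed arms). For 3p at week 3 against week 1 on the high-fat diet it gave 1.57 (adjusted p 0.292 in edgeR). The cause of these changes was not tested. For miR-335-3p at week 3 against day 1, DESeq2 gave 1.80 on the high-fat diet (adjusted p 0.0395), and with no filter on low counts edgeR gave 1.56 over both diets (adjusted p 0.0693). In that contrast edgeR called 40 miRNAs, DESeq2 71 and limma 91. With library totals alone, r was −0.0097 for 5p with adipocyte markers, −0.044 for 3p with neuronal markers and −0.59 for 5p with leukocyte markers (permutation p, adjusted, 0.0873); without the 2 libraries farthest from the median, 3p with neuronal markers was −0.23.

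Leaving out 1 library at a time, the 3p value over both diets ran from 1.21 to 1.72 (adjusted p 0.0111 to 0.0523 in edgeR). The 3p diet effect at week 3 minus day 1 ran from −0.17 (without high-fat week 3 replicate 3) to 0.97, and 3p at week 1 against day 1 on the control diet from −0.037 (without control week 1 replicate 3) to 0.57. The 5p value at week 3 against day 1 on the control diet ran from −0.54 to 0.14, and was above 0 without control day 1 replicate 3 or control week 3 replicate 3. The diet difference in arm ratio ran from −0.34 to 0.14 at week 1, from −0.37 to 0.0073 at week 3 and from −0.45 to −0.28 over the 3 times. Over the 3 times, the exact permutation p was 0.0445 without control day 1 replicate 1 and 0.0330 without high-fat week 1 replicate 2. These were the only 2 of 24 runs under 0.05, and neither p was adjusted over hairpins. With all libraries the exact permutation p was 0.0967.

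The labels do not say what a replicate number shares. Same-numbered libraries of a time correlated at −0.51 to 0.45, over 0.1 in 7 of 12 pairs. By time, r was 0.07 to 0.45 at day 1, −0.51 to 0.43 at week 1 and −0.30 to 0.37 at week 3. As not all pairs were over 0.1, the numbers were not taken to pair the samples. That 11 of 24 libraries correlated best with their own number, each among 4 of the other diet, is a hint from the data. With the number as a block, 33 miRNAs passed at week 3 against day 1 over both diets, 3p among them (1.46, adjusted p 0.0275 in edgeR). On the high-fat diet alone and on the control diet alone 0 passed with that block. The 3p values there were 1.51 (high-fat, adjusted p 0.236 in edgeR) and 1.42 (control, adjusted p 0.247). That block gives each number an effect shared by all times and diets, so it does not show what pairing within a time would give. With 4 libraries a group, the 95% interval of the 3p diet contrast at week 1 spans no difference and a 4.19-fold higher level.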
